A study of Triticum turgidum subsp. durum with 12 samples.

Results

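FUL2 and FUL3 are MADS-box genes of wheat, each present as an A and a B homeolog in the tetraploid genome, and they were followed here in leaves of plants with and without the phytochromes PHYB and PHYC. The 4 genes were taken by their identifiers out of 72120 genes in the count table: FUL-A2 (TraesCS2A01G261200), FUL-B2 (TraesCS2B01G281000), FUL-A3 (TraesCS2A01G174300) and FUL-B3 (TraesCS2B01G200800). The identifiers place the A homeologs on chromosome 2A and the B homeologs on chromosome 2B. All 4 genes had values in the count table and in the TPM table (transcript abundance scaled by gene length and by library).

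Leaf transcriptomes were measured in 12 RNA-seq libraries, 4 for each of 3 genotypes, to find genes that depend on the phytochromes in short days. The phyB-null line carried EMS-induced null mutations in both the A and B copies of PHYB, and the phyC-null line carried such mutations in both copies of PHYC. WT was Kronos, the durum wheat from which both lines were derived. Each mutant was 1 line after 2 backcrosses to Kronos, so other EMS mutations of that line and the loss of its phytochrome cannot be told apart. All genotypes shared the Kronos background, with the photoperiod-insensitive allele Ppd-A1a and the spring allele Vrn-A1. Plants were 8 weeks old and were kept at 8 h of light and 16 h of dark, at 20 °C by day and 18 °C by night. The labels call the tissue the third leaf in one field and the youngest expanded leaf in another, and the methods name the last expanded leaf. According to the methods, WT apices had begun to form spikes at harvest and mutant apices were vegetative, so genotype and developmental stage cannot be told apart. The methods describe the replicates as biological, from individual plants. The identifiers of the mutated PHYB and PHYC copies are not paired with names in the tables used here, so the genotype labels were not checked on those genes.

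FUL2, FUL3 and VRN1 belong to the clade of plant MADS-box transcription factors that holds APETALA1 and FRUITFULL of Arabidopsis. In wheat they act in the change of the shoot apex from leaf to spike formation and in the identity of the spikelet meristem. In temperate cereals, phytochromes act upstream of PPD1, which promotes expression of FT1 in leaves in inductive days. The FT1 protein moves to the apex, where it promotes expression of VRN1 and FUL2. The transcripts described below are from leaves.

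Counts on genes ranged between 37365465 and 58944135 per library. The phyC-null replicate 3 library had the highest total and the lowest TMM scaling factor (0.761, with 0.875 to 1.12 in the other libraries), and each comparison below was also run without it. The 8 leaf photosynthesis genes (RbcS, Lhc and PsbW) summed to between 7548 and 28371 TPM in every library. Of 18 floral organ MADS-box genes, 14 were below 1 TPM in every library, and their sum was 16.9 to 22.5 TPM in phyB-null, 11.8 to 13.8 TPM in phyC-null and 14.2 to 18.4 TPM in WT. Among 8 knotted-1-like genes, 4 were below 1 TPM in every library and the other 4 were above 15 TPM in every library, so that list as a whole did not separate apex from leaf.

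FUL3 transcripts were present in all WT leaves and close to absent in both mutants. The phyB-null libraries had 0, 0.0622, 0 and 0.0299 TPM of FUL-B3, against 0.209, 0.155, 0.0223 and 0.111 TPM in the phyC-null libraries, and 28.7, 11.9, 6.94 and 27.6 TPM in the WT libraries. In counts, the FUL-B3 sums were 3 reads in phyB-null, 17 reads in phyC-null and 2228 reads in WT. Every mutant library lay far below the lowest WT library. In whole leaves, fewer cells with the transcript and less transcript per cell cannot be told apart. The A homeolog had the same contrast: FUL-A3 was at 0.0141, 0.0472, 0.0117 and 0.0454 TPM in phyB-null leaves, 0.0113, 0, 0.0593 and 0.0420 TPM in phyC-null leaves, and 12.6, 7.77, 5.001 and 16.2 TPM in WT leaves. The sums of FUL-A3 counts were 10, 12 and 3276 in phyB-null, phyC-null and WT. The 8 mutant libraries had between 0 and 7 reads of FUL-A3 each.

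FUL2 was expressed at a lower level than FUL3 in WT, and most of it was FUL-A2 (76.2% to 91.6% of FUL2 TPM per library). The phyB-null libraries had 0.0904, 0, 0.0150 and 0 TPM of FUL-A2, the phyC-null libraries 0, 0.0152, 0 and 0 TPM, and the WT libraries 2.29, 2.17, 0.976 and 4.35 TPM. Of the 6 FUL-A2 reads in phyB-null, 5 were in replicate 1, and phyC-null had 1 read in all. For FUL-B2, the phyB-null libraries had 0.0361, 0, 0.150 and 0.0583 TPM, the phyC-null libraries 0, 0.121, 0.174 and 0.0809 TPM, and the WT libraries 0.211, 0.244, 0.304 and 0.491 TPM. FUL-B2 was the one homeolog whose WT level came near that of the mutants. Its counts summed to 8 in phyB-null, 15 in phyC-null and 39 in WT. In a single library 3 reads, the floor set by a count of 0, are worth 0.0327 to 0.0543 TPM for FUL-A2, 0.0653 to 0.108 TPM for FUL-B2, 0.0254 to 0.0422 TPM for FUL-A3 and 0.0670 to 0.111 TPM for FUL-B3. Most mutant values were thus at or below what can be told from 0 in a single library.

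**Figure D1:**
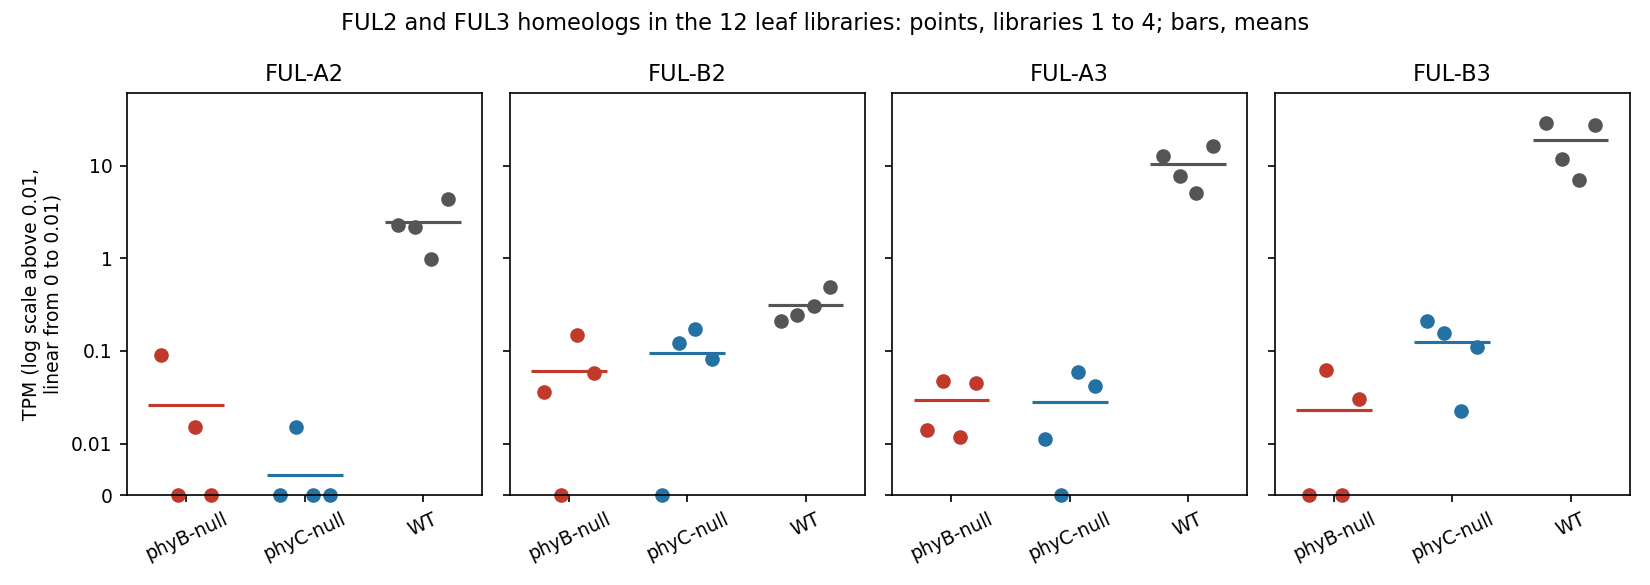
TPM of FUL-A2, FUL-B2, FUL-A3 and FUL-B3 in each library of phyB-null, phyC-null and WT; points are replicates 1 to 4 from left to right, bars are means of 4 libraries, and the axis is logarithmic above 0.01 TPM. All 8 mutant libraries of FUL-A3 and FUL-B3 sit at or below 0.209 TPM and all WT libraries at or above 5.001 TPM, while FUL-B2 in WT (0.211 to 0.491 TPM) is close to the highest mutant values (0.150 and 0.174 TPM).

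As group means, FUL-B3 averaged 0.0230 ± 0.0297 TPM in phyB-null leaves, 0.124 ± 0.0790 TPM in phyC-null leaves and 18.8 ± 11.01 TPM in WT leaves (SD, n = 4 each). FUL-A3 averaged 0.0296 ± 0.0193, 0.0281 ± 0.0273 and 10.4 ± 5.004 TPM in phyB-null, phyC-null and WT leaves. The corresponding means of FUL-A2 were 0.0264 ± 0.0433, 0.00379 ± 0.00759 and 2.45 ± 1.40 TPM, and those of FUL-B2 were 0.0611 ± 0.0640, 0.0940 ± 0.0734 and 0.313 ± 0.125 TPM. Among the 75779 gene models with a TPM above 0 in WT, FUL-B3 ranked above 89.6% of models, FUL-A3 above 83.1%, FUL-A2 above 62.5% and FUL-B2 above 38.1%. In this order of WT levels, FUL-B3 and FUL-A3 were neighbours whose ranges overlapped. FUL-A3 and FUL-A2 did not overlap, and neither did FUL-A2 and FUL-B2. Within each WT library, however, FUL-B3 was above FUL-A3 in TPM in 4 of 4 libraries (exact paired permutation test, two-sided, p = 0.125, the smallest that 4 pairs allow).

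Each mutant was compared with WT by edgeR's quasi-likelihood test on counts, with one fit for the whole table, and a gene was called at a p below 0.01 after Benjamini-Hochberg adjustment. Fold changes are mutant over WT, so that negative log2 values are lower levels in the mutant. In phyB-null, 3 of the 4 genes were called lower, against a background of 5.95% of all genes called lower and 5.97% called higher. The log2 fold change was -9.30 ± 0.74 (standard error) for FUL-B3, with an adjusted p of 4.48e-06, -8.27 ± 0.53 for FUL-A3 (9.69e-07) and -6.51 ± 0.72 for FUL-A2 (5.70e-05), all by edgeR's quasi-likelihood test. The log2 fold change of FUL-B2 was -2.19 (0.75, adjusted p = 0.0556 by the same edgeR test), and it was not called. The interval of FUL-B2, from -3.66 to -0.72 at 1.96 standard errors, lay below 0. The median log2 fold change of the 4 genes was -7.39, beside 0.00 for all genes tested.

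In phyC-null, the same 3 genes were called, where 0.374% of all genes were called lower and 0.422% higher. The values were -8.82 ± 0.78 for FUL-A2, with an adjusted p of 0.000109, -8.24 ± 0.61 for FUL-A3 (3.00e-05) and -7.21 ± 0.61 for FUL-B3 (7.06e-05), by the same edgeR quasi-likelihood test. FUL-B2 had a log2 fold change of -1.49 (0.75, adjusted p = 0.349 by the same edgeR test), with an interval of -2.96 to -0.02, and was not called. Its unadjusted p was 0.0707 by the same edgeR test, although the interval, of 1.96 standard errors on each side, left out 0. The median of the 4 genes was -7.72, beside 0.06 for all genes. Both comparisons used the same WT libraries. Called lower in both mutants were 149 of all genes (0.207%).

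Ratios of summed counts, scaled by library size, were also taken, since the fitted value of a gene with 1 to 3 reads in a group depends on the prior count. FUL-B3 was 748-fold lower in phyB-null than in WT (exact 95% counting interval 256 to 3630), and FUL-A2 was 708-fold lower in phyC-null than in WT (127 to 27992). The other ratios of these genes were 154-fold for FUL-B3 in phyC-null (96.1 to 265) and 101-fold for FUL-A2 in phyB-null (46.1 to 276). For FUL-A3, the ratios were 330.0-fold in phyB-null (179 to 689) and 321-fold in phyC-null (184 to 623). The FUL-B2 ratios were 4.91-fold (2.26 to 12.2) and 3.06-fold (1.65 to 5.98). These intervals cover counting error only. For each of the 4 genes, every mutant library was below every WT library in TPM in both comparisons. The same was the case for 14.4% of genes in phyB-null and 5.18% in phyC-null. In CPM (counts scaled to library size with TMM factors), FUL-B2 in phyC-null did overlap with WT.

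The 3 calls in each mutant were kept when each library was left out in turn and under every alternative on counts. Without phyB-null replicate 1, which held 5 of the 6 reads, the log2 fold change of FUL-A2 was -8.37 in phyB-null. Without phyC-null replicate 2, which held the only read, that of FUL-A2 was -10.35 in phyC-null. The FUL-B3 value in phyB-null was -10.28 without phyB-null replicate 2, and the FUL-A3 value in phyC-null was -9.10 without phyC-null replicate 3. FUL-B2 without phyB-null replicate 3 was at -3.10 in phyB-null, and without phyC-null replicate 3 at -2.22 in phyC-null, and it was called in neither. With limma on log2(TPM + 1) over all models of the TPM table, FUL-A2 lost its call in phyB-null, and none of the 3 genes was called in phyC-null (adjusted p of 0.162 for FUL-A2, 0.0251 for FUL-A3 and 0.0451 for FUL-B3). In that fit most models were at 0 in all libraries and limma warned that its variance estimates were unreliable. Over the models of the count table alone, an alternative added after the data were seen, the 3 genes were called in phyB-null and FUL-A3 and FUL-B3 in phyC-null, with an adjusted p of 0.0375 for FUL-A2 (limma).

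Whether the 2 mutants differed from each other was tested directly, and none of the 4 genes was called, where 3.41% of all genes were (2.02% lower and 1.4% higher in phyB-null). None of the 4 had an unadjusted p under 0.05 in the edgeR test either, and DESeq2 called none. FUL-B3 had 3 reads in phyB-null and 17 reads in phyC-null, a count ratio of 0.206 (exact 95% counting interval 0.0387 to 0.713). Its log2 fold change, phyB-null over phyC-null, was -2.07 (standard error 0.98, adjusted p = 0.235 by edgeR's quasi-likelihood test). For FUL-A2, with 6 reads and 1 read, the count ratio was 7.01 (0.851 to 323). The log2 fold changes of FUL-A3 and FUL-B2 were -0.03 and -0.70, with intervals of -1.93 to 1.87 and -2.73 to 1.34. These intervals hold differences of over 3-fold in either direction for FUL-A3, so alike levels in the mutants were not shown. The sign for FUL-A3 turned in several alternatives and that for FUL-B2 without phyC-null replicate 3.

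The homeologs contributed unequally to each gene, and the balance differed between FUL2 and FUL3. The A homeolog made up 86.9 ± 7.15% of FUL2 TPM in WT (SD, n = 4), with 91.6%, 89.9%, 76.2% and 89.9% in replicates 1 to 4. For FUL3 the A homeolog made up 37.2 ± 4.88% of TPM, with 30.5%, 39.4%, 41.9% and 37.0%. The A share of FUL2 exceeded that of FUL3 in 4 of 4 WT libraries, by 49.7 ± 11.2 percentage points (SD). The exact paired permutation test gave p = 0.125 (two-sided), the smallest that 4 pairs allow.

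For FUL3, the direction of the homeolog bias depended on the unit. In counts, FUL-A3 was the more abundant homeolog in every WT library, with A shares of 53.7% (95% Wilson interval 51.3 to 56.0), 63.2% (60.01 to 66.3), 65.5% (61.8 to 69.1) and 60.8% (58.7 to 62.8). In TPM, FUL-B3 was the more abundant homeolog in every WT library. The ratio of counts to TPM shows that the length used for the FUL-A3 model was 2.64 times that of FUL-B3. For FUL2 this ratio of A to B lengths was 1.996, and the A share was 92.8 ± 4.26% in counts (SD, n = 4), so the A homeolog was the major one in both units. For the VRN1 homeologs the ratio was 0.909. Gene models were not used here beyond these ratios, so which FUL3 homeolog had more transcripts per length rests on the model lengths behind the TPM.

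**Figure D2:**
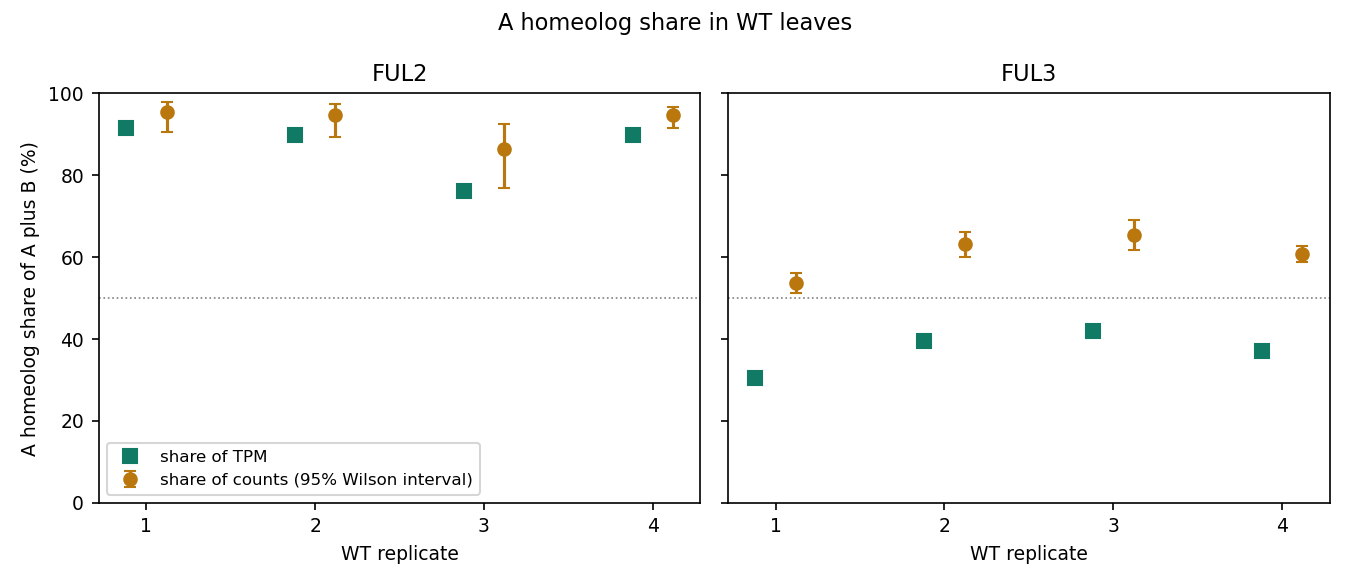
Share of the A homeolog in the sum of A and B homeologs, in percent, for FUL2 (left) and FUL3 (right) in the 4 WT libraries; squares are shares of TPM, circles are shares of counts with 95% Wilson intervals. FUL3 lies between 30.5% and 41.9% in TPM and between 53.7% and 65.5% in counts, on either side of 50%, whereas FUL2 stays above 76% in both.

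Few reads were left in the mutants from which to take a homeolog share. Of the FUL2 reads, 6 of 14 were from FUL-A2 in phyB-null (42.9%, exact 95% interval 17.7 to 71.1) and 1 of 16 in phyC-null (6.25%, 0.158 to 30.2), against 601 of 640 in WT (93.9%, 91.8 to 95.6). Neither mutant interval of the pooled FUL2 reads reached the WT interval. FUL3 reads were from FUL-A3 in 10 of 13 cases in phyB-null (76.9%, 46.2 to 94.96) and 12 of 29 in phyC-null (41.4%, 23.5 to 61.1), against 3276 of 5504 in WT (59.5%, 58.2 to 60.8), a share that lies within both mutant intervals. The libraries of a genotype differed among themselves. In phyB-null, 5 of 6 FUL2 reads were from FUL-A2 in replicate 1, but 1 of 6 in replicate 3 and 0 of 2 in replicate 4. In phyC-null, FUL-A3 gave 1 of 8 FUL3 reads in replicate 1, 0 of 5 in replicate 2, 7 of 8 in replicate 3 and 4 of 8 in replicate 4. The intervals pool the libraries and leave out this spread. Reads that match both homeologs equally were not counted.

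VRN1, the closest relative of the FUL genes, gave a scale for these losses within the same clade. The 6 VRN1, FUL2 and FUL3 homeologs summed to 33.9 ± 2.79 TPM in phyB-null, 39.5 ± 7.30 TPM in phyC-null and 148 ± 19.6 TPM in WT (SD, n = 4). FUL2 and FUL3 together took 0.415 ± 0.0898% of this sum in phyB-null, 0.646 ± 0.108% in phyC-null and 20.8 ± 9.32% in WT. Among WT libraries their share was 27.2%, 14.8%, 11.04% and 30.1% in replicates 1 to 4. VRN-A1, the homeolog that carries the spring allele, took 99.1%, 98.8% and 71.0% on average in phyB-null, phyC-null and WT. The clade in mutant leaves was thus made up almost wholly of VRN-A1 transcripts.

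**Figure D3:**
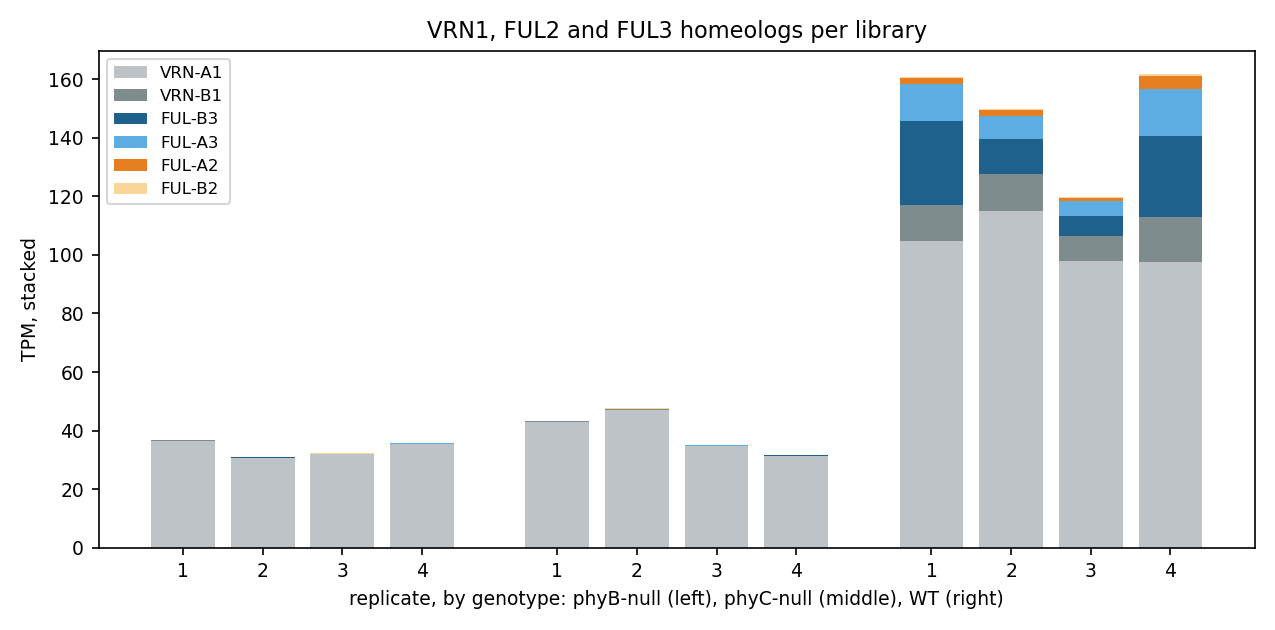
Stacked TPM of the VRN1, FUL2 and FUL3 homeologs in each library, with phyB-null on the left, phyC-null in the middle and WT on the right. The blue FUL3 and orange FUL2 segments are visible in WT, where they make up 11.04% to 30.1% of the sum, and are too thin to see in the mutants, where they make up 0.354% to 0.736%.

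FUL2 and FUL3, each taken as A plus B, fell by more than VRN1 taken as A plus B. VRN-A1 gave 88.6% of VRN1 counts in WT, 99.5% in phyB-null and 99.3% in phyC-null, so the comparison is mainly with VRN-A1. VRN-B1 alone had log2 fold changes of -6.06 in phyB-null and -5.58 in phyC-null, and FUL2 and FUL3 were not tested against it. For FUL-B2 alone the values were -2.19 and -1.49, beside -1.52 and -1.30 for VRN-A1. The ratio of FUL3 counts to VRN1 counts (A plus B, 0.5 added to each) was taken within each library, where library size cancels. Its mean log2 value was -9.21 in phyB-null, -8.28 in phyC-null and -2.26 in WT. The difference from WT was -6.94 for phyB-null and -6.02 for phyC-null, with every mutant library below every WT library. For FUL2 the mean log2 ratios were -9.36, -9.62 and -5.37, and the differences from WT were -3.98 and -4.25. The sizes depend on the value added, since the mutant libraries had few FUL reads. With 1 added, the differences for phyB-null and phyC-null were -3.62 and -3.90 for FUL2, and -6.68 and -5.93 for FUL3. Each of the 4 comparisons gave p = 0.0286 in an exact permutation test (two-sided, the smallest that 4 against 4 allows) and an adjusted p of 0.0286 by the same exact test after Benjamini-Hochberg adjustment over the 4. With 0.5 added, leaving out any library keeps the differences between -3.20 and -7.35, though 3 against 4 libraries cannot reach 0.05. This comparison was added after the data were seen.

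The WT libraries themselves differed widely in FUL transcripts. The highest WT library exceeded the lowest by 4.46-fold for FUL-A2, 3.25-fold for FUL-A3, 4.13-fold for FUL-B3 and 2.33-fold for FUL-B2. The coefficient of variation among WT libraries was 57.3% for FUL-A2, 48.1% for FUL-A3 and 58.6% for FUL-B3, compared with a median of 14.2% over the 36342 genes with a WT mean of at least 1 CPM. FUL-A2 varied more than 98.6% of these genes, FUL-A3 more than 97.2% and FUL-B3 more than 98.7%. FUL-B2, with 6 to 16 reads per WT library, was under that minimum, and its coefficient was 40.1%.

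FUL-A2, FUL-A3 and FUL-B3 had the same lowest WT library, replicate 3, which was lowest in TPM for 18.4% of the 36342 genes. Replicate 3 was at 0.399, 0.481 and 0.369 of the WT mean of FUL-A2, FUL-A3 and FUL-B3. Replicate 4 was at 1.78, 1.56 and 1.47 of the mean, and replicate 1 at 0.935, 1.21 and 1.53. In CPM, the 3 genes had the same order of libraries, replicate 4 above 1, 2 and 3, as 4.88% of the 36342 genes did. In TPM, FUL-A2 and FUL-A3 had this order (2.06% of genes), and FUL-B3 had replicate 1 just above 4. FUL-B2 was also highest in replicate 4, at 1.57 of its mean, but lowest in replicate 1. With 4 libraries no correlation was computed, and these orders are a description.

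VRN-B1, the B homeolog of VRN1, had the same highest and lowest WT libraries as FUL-A2 and FUL-A3, and VRN-A1 did not. In TPM, 3.87% of the 36342 genes had replicate 4 highest and replicate 3 lowest. In CPM, VRN-A1 was also lowest in replicate 3, but highest in replicate 2. VRN-B1 was highest in WT replicate 4, at 1.25 of its mean, and lowest in replicate 3, at 0.706, with replicate 2 above 1 in TPM and 1 above 2 in CPM. VRN-A1 stayed between 0.941 and 1.11 of its mean. The photoperiod genes were also steady, with PPD-B1 between 0.935 and 1.13 of its WT mean and GIGANTEA-A between 0.938 and 1.06. In CPM, GIGANTEA-A had the same order of libraries as the FUL genes, over this narrow range. The summed photosynthesis genes were highest in replicate 4, at 1.34 of their mean, and lowest in replicate 2, at 0.738. Their part in the FUL values was not tested.

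The FT-like genes, which encode florigen and its relatives, had another pattern in the same WT libraries. FT-A1, FT-B1, FT-A2, FT-B2, FT-B3 and FT-A4 were each highest in WT replicate 2, at 2.11, 1.52, 1.54, 1.68, 1.73 and 2.11 of their means. FT-B10, which was called in neither mutant, was also highest in replicate 2, at 1.72 of its mean. In that library FUL-A2, FUL-A3 and FUL-B3 were at 0.886, 0.746 and 0.634 of theirs. In replicate 4, where the FUL genes were high, FT-A1 was at 0.429, FT-B1 at 0.397 and FT-B2 at 0.366 of the mean. FT-B3 was at 0.722, FT-A2 at 0.852 and FT-A4 at 0.998 in that replicate, the second highest WT library for FT-A2 and FT-A4. Replicate 2 was the highest WT library for 31.4% of the 36342 genes, so the FT-like genes shared their peak library with many others. The WT library highest in these FT-like genes was thus not the one highest in any FUL2 or FUL3 homeolog.

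**Figure D4:**
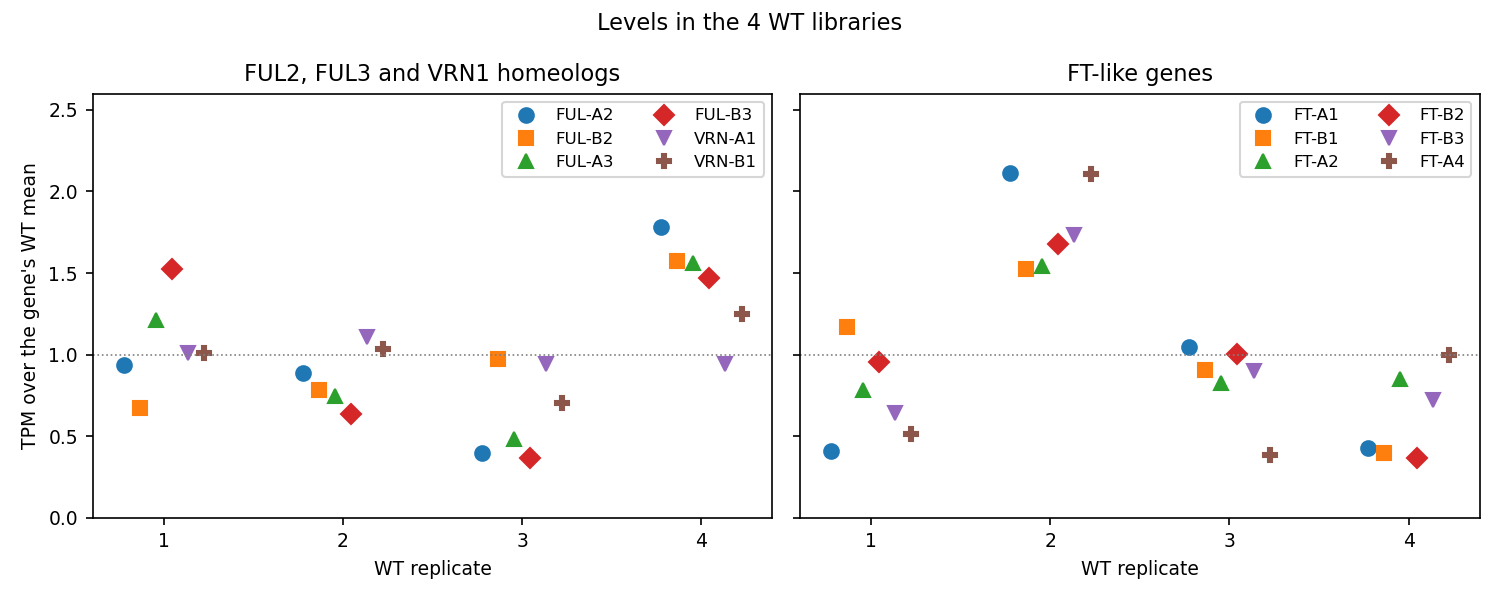
TPM of each gene in WT replicates 1 to 4, divided by the gene's own mean over the 4 WT libraries, for the FUL2, FUL3 and VRN1 homeologs (left) and for FT-like genes (right). FUL-A2, FUL-A3 and FUL-B3 are lowest in replicate 3 (0.369 to 0.481) and high in replicate 4 (1.47 to 1.78), whereas the 6 FT-like genes are all highest in replicate 2 (1.52 to 2.11).

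Likeness to FUL2 (A plus B) and FUL3 (A plus B) was taken as the root mean square of differences in log2 CPM (prior count of 2) across the 12 libraries, once the WT mean of each gene had been subtracted. It was computed for 36418 other genes. VRN-B1 took place 3 for FUL2, at a difference of 0.90. The others of the closest 5 were low confidence models: TraesCS6B01G798700LC (0.81), TraesCS6B01G798500LC (0.87) and TraesCS6B01G798900LC (0.92), annotated as helicases, and TraesCS5A01G055900LC (0.96), annotated as glycerol kinase. The 3 helicase models, which have neighbouring identifiers on chromosome 6B, had no count in either mutant and 3.68 to 4.17 TPM on average in WT.

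Closest to FUL3 were TraesCS3A01G242800LC (1.33), annotated as an initiation factor subunit, TraesCS7B01G265700 (1.58), a sulfotransferase, FT-B1 (1.72), TraesCSU01G007900 (1.74), a disease resistance protein, and VRN-B1 (1.76). VRN-B1 was among the closest 5 of both FUL2 and FUL3 at this prior count. The measure was dominated by the difference between genotypes. With a prior count of 0.5, 3 of the 5 genes remained for FUL2 and 2 of 5 for FUL3, VRN-B1 moved to place 1 for FUL2 and place 12 for FUL3, and TraesCS6B01G798500LC and TraesCS6B01G798900LC were in both lists. Over the WT libraries alone none of the 5 remained in either list. There, VRN-B1 ranked 124 for FUL2 and 355 for FUL3 of 36418 genes, whereas FT-A1 ranked 36049 and 36199, and FT-B1 ranked 35617 and 35375, near the end of the list. The measure grows with a gene's own spread as well as with a differing order, so late places alone do not show opposite patterns. The WT coefficient of variation was 79.9% for FT-A1 and 47.5% for FT-B1.

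The FUL genes were set beside the other flowering genes of the same leaves. Both VRN1 homeologs were called lower in both mutants, with log2 fold changes of -1.52 in phyB-null and -1.30 in phyC-null for VRN-A1, and -6.06 and -5.58 for VRN-B1. Of 11 FT-like genes, 7 were called lower and 3 higher in phyB-null, and 5 lower and 1 higher in phyC-null. The genes lower in both were FT-A1, FT-B1, FT-A2, FT-B2 and FT-B3, and FT-A4 and FT-B4 were called lower in phyB-null. In phyC-null FT-A4 had a log2 fold change of -2.61 (adjusted p = 0.0626) and FT-B4 of -2.35 (adjusted p = 0.201), and neither differed past the threshold between the mutants (adjusted p of 0.0391 and 0.180), all by edgeR's quasi-likelihood test. The median of this list was -4.43 in phyB-null (-4.36 with the 4 genes that had no count in phyB-null set to their bound against 3 reads over the group) and -2.61 in phyC-null. Higher were FT-A9 in both mutants, at 8.02 ± 0.972, 2.83 ± 0.535 and 0.200 ± 0.135 TPM in phyB-null, phyC-null and WT, and FT-A12 and FT-B12 in phyB-null.

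Of the 4 photoperiod genes, PPD-A1 and PPD-B1 were called lower in phyB-null and PPD-B1 in phyC-null. PPD-B1, a homeolog of the pseudo-response regulator PPD1, was at 0.402 ± 0.151 TPM in phyB-null, 1.02 ± 0.492 TPM in phyC-null and 10.2 ± 0.877 TPM in WT. GIGANTEA-A and GIGANTEA-B, clock genes, were not called in either mutant. The median of the photoperiod list was -0.22 in phyB-null and -0.47 in phyC-null. FUL-A3, FUL-B3 and FUL-A2 thus had fitted changes of the size seen for FT1 and VRN-B1, while the changes of FUL-B2 were nearer to those of VRN-A1.

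**Figure D5:**
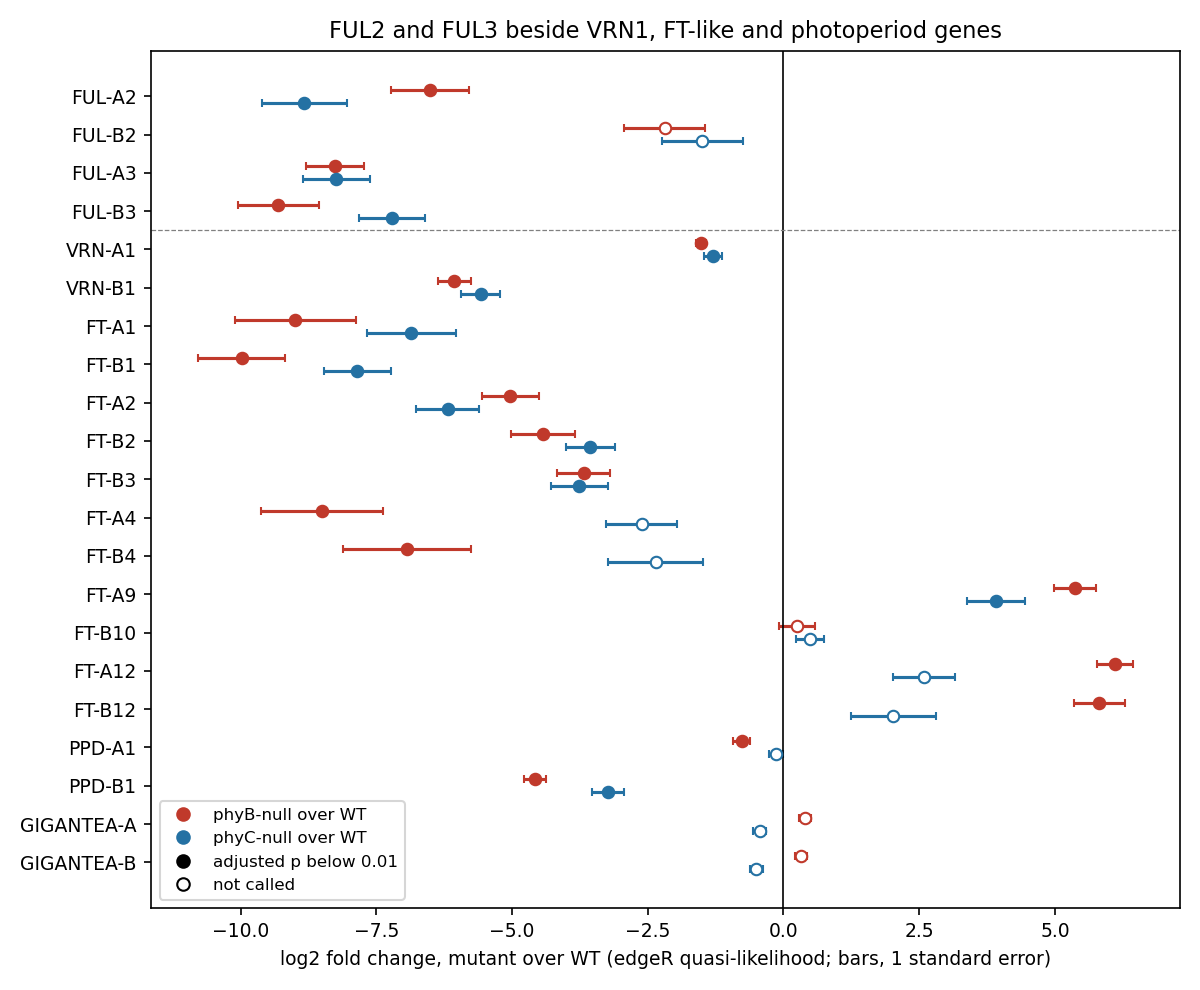
Log2 fold changes of the FUL2 and FUL3 homeologs (above the dashed line) and of VRN1, FT-like and photoperiod genes, with phyB-null over WT in red above phyC-null over WT in blue; bars are 1 standard error and filled points are called at an adjusted p below 0.01 (edgeR quasi-likelihood test). FUL-A2, FUL-A3 and FUL-B3 lie between -6.51 and -9.30 in both mutants; values of FT-A1, FT-B1, FT-A4 and FT-B4 in phyB-null, where no read was found, depend on the prior count of the fit.

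Other MADS-box clades were counted in the same way. None of 18 floral organ genes, none of 6 genes of the SVP clade, which holds repressors of flowering in Arabidopsis, and none of 7 genes of the SOC1 clade was called lower in either mutant. Higher in both mutants were SOC1-A2 (2.63 in phyB-null and 1.44 in phyC-null, log2) and SOC1-B2 (2.32 and 1.47), relatives of a flowering promoter of Arabidopsis. Of 12 genes of the FLC clade, 2 were called lower and 5 higher in phyB-null, and 0 and 4 in phyC-null. Higher in both were FLC-A2 (1.63 and 2.22), FLC-B2 (2.56 and 3.21), FLC-A4-1 (2.28 and 4.19) and FLC-B4 (2.81 and 3.31). The median log2 fold change of the FLC clade was 1.35 in phyB-null and 1.12 in phyC-null, and that of the SOC1 clade 0.24 and -0.19. For the SVP clade, with 2 genes called higher in phyB-null, the medians were 0.31 and 0.15.

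Among floral organ genes, 1 was called higher in phyB-null, and the medians were -0.66 (-0.62 with the gene at 0 set to its bound) and -0.30. Of 19 other MADS-box genes, 3 were called lower and 1 higher in phyB-null and none in phyC-null, with medians of 0.14 and 0.23. No knotted-1-like gene was called in either mutant, and 2 of the 8 photosynthesis genes were called higher in phyB-null and none in phyC-null. Those 2 were the PsbW genes. The 2 Lhc genes went the other way in phyB-null, with log2 fold changes of -2.35 and -2.23. Their adjusted p was 0.0466 and 0.0177 by the edgeR quasi-likelihood test, so neither was called. By the edgeR quasi-likelihood test, none of these other genes was called lower in both mutants. FLC-B1 came near, with log2 fold changes of -3.51 in phyB-null (adjusted p = 0.000718) and -1.79 in phyC-null (adjusted p = 0.0821), and DESeq2 called it in phyC-null (adjusted p = 0.00530); it was singled out after its values were seen. These lists were drawn from the study's own gene tables, which were shown in part, and the study chose many of the genes on these samples.

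The genes next to FUL2 and FUL3 on their chromosomes were counted by the same test. Of the 5 high confidence genes on either side of each homeolog in the order of identifiers, 40 in all, 4 were called lower and 2 higher in phyB-null (15%, beside 11.9% of all genes), and none was called in phyC-null (0.796% of all genes). The medians of the 10 neighbours ranged between -0.43 and 0.36 over the 4 homeologs in phyB-null and between -0.18 and 0.34 in phyC-null. With 10 genes on either side, 9 of 80 were called lower and 3 higher in phyB-null (15%), where 5.95% and 5.97% of all genes were, and none was called in phyC-null. These windows were chosen after the data were seen.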

How the data were processed

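Leaf RNA of 3 genotypes was sequenced as 100 bp single-end reads on 2 lanes, each with 2 replicates of every genotype. The lane of each replicate is not given, and lane did not enter the fits. The authors aligned the reads (GSNAP, IWGSC RefSeq v1.0 assembly), took those with a unique position, counted them per gene model with HTSeq (strand setting and versions not given in the sources used here) and removed genes with fewer than 3 counts in every library. They deposited raw counts for 72120 genes, without normalization, and TPM for 190459 gene models. Of the counted genes, 70674 are in both tables.

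Counts were tested with edgeR 4.0.16 (R 4.3.3), with 8 libraries per comparison, TMM factors, no filter and no covariates. The standard error was derived from the F statistic. Intervals of 1.96 such errors on each side are approximate and can leave out 0 where the unadjusted p of the edgeR test is above 0.05. Other settings tried were DESeq2 1.42.0, calls shared by DESeq2 and edgeR, other scaling, filterByExpr, an adjusted p below 0.05, all 12 libraries in one fit, a replicate block, limma 3.58.1 on log2(TPM + 1) and log2(TPM + 0.1), and fits without each library. The model was tested on simulated data first. Exact permutation tests and intervals used scipy 1.17.1. The likeness of patterns used CPM computed from the deposited counts.

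Named genes are FUL2, FUL3, VRN1, FT-like and photoperiod genes, genes of other lists called in both mutants, and the 5 genes nearest in pattern to FUL2 and to FUL3. Gene names were taken from the study's tables. Members and lists were chosen with earlier results of these data known. Values per library are at most as precise as the reads behind them, and replicates were not copies of each other, since every pair had a chi-square of 12.0 or more per degree of freedom. Nucleotide and protein sequences were not used here, as the reference table used has identifiers of another assembly.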

Additional observations from a re-analysis of the deposited data

Results flagged for a closer look

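Of 98 sets of 4 libraries examined for the named genes and the homeolog shares, 17 had a library far from the other 3 by Dixon's criterion. Its chance rate of about 1 in 20 assumes continuous, normal values. A set with reads in only 1 library passes whatever the number of reads, as for FUL-A2 in phyC-null and TraesCS5A01G055900LC in both mutants. The 17 sets are therefore a list to look at and were not weighed against that rate. Replicate 3 of WT had a FUL2 A share of 76.2% of TPM, the lowest of the 4 by a gap of 0.889 of the range, and it was the library with the fewest FUL-A2 reads. FUL-A2 had 0.0904 TPM in phyB-null replicate 1, which held 5 of the 6 reads of that genotype, and 0.0152 TPM in phyC-null replicate 2, which held the only one.

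Among the other named genes, WT replicate 2 stood apart in FT-A2 (6.75 TPM), FT-B10 (9.80 TPM) and TraesCS6B01G798500LC (2.995 TPM), and WT replicate 1 in FT-A9 (0 TPM). In phyB-null, replicate 1 stood apart in GIGANTEA-A (26.6 TPM), GIGANTEA-B (17.9 TPM), FLC-B4 (6.44 TPM) and TraesCS5A01G055900LC (0.193 TPM), and replicate 4 in FT-B12 (7.68 TPM). In phyC-null, replicate 2 stood apart in FT-B3 (0.919 TPM) and FT-B4 (0.292 TPM), replicate 3 in FT-B2 (0.0297 TPM) and SOC1-A2 (4.01 TPM), and replicate 4 in TraesCS5A01G055900LC (0.0361 TPM).

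The effects of the mutants differed for 7 named genes, none of them FUL2 or FUL3, by the direct edgeR quasi-likelihood test of phyB-null against phyC-null at an adjusted p below 0.01. The log2 fold changes, phyB-null over phyC-null, were 3.82 for FT-B12, 3.54 for FT-A12, 1.48 for FT-A9, 1.20 for SOC1-A2, 0.87 for SOC1-B2, 0.85 for GIGANTEA-A and 0.84 for GIGANTEA-B.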

How the results depend on the processing

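The log2 fold changes of FUL-A2, FUL-A3 and FUL-B3 against WT kept their direction and their call in 96 of 96 fits on counts, in 5 of 12 with limma over all TPM models and in 11 of 12 with limma over the models of the count table (added after the data were seen). Those of FUL-B2 kept direction and stayed uncalled in 38 of 38 fits. The limma fits over all models called 0 of the 4 genes in phyC-null with log2(TPM + 1) and 1 with log2(TPM + 0.1). Between the mutants, the FUL-A3 value of -0.03 was 0.014 with library totals, 0.17 with the replicate block, and 0.0022 and 0.029 with limma on log2(TPM + 1) and log2(TPM + 0.1), also over the models of the count table. Leaving out single libraries gave -0.43 to 0.87 for FUL-A3 and -1.62 to 0.026 for FUL-B2, and -0.013 to 0.59 for FT-B10 in phyB-null over WT. The FUL3 A share in WT was 60.8% in counts, in place of 37.2% in TPM. Leaving out single WT libraries gave 35.7% to 39.4% for FUL3 and 85.3% to 90.4% for FUL2.

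Counts of all genes called moved more. For phyB-null over WT, 8595 became 15463 at an adjusted p below 0.05, 5388 with the replicate block, 2404 and 1429 with limma on log2(TPM + 1) and log2(TPM + 0.1), 5681 and 4683 with limma over models of the count table, and 5270 to 8437 without single libraries. For phyC-null over WT, 574 became 2468 with DESeq2, 2003 with both tools, 1958 at 0.05, 907 with all libraries in one fit, 918 with the replicate block, 136 and 128 with limma, 273 and 353 over models of the count table, and 329 to 958 without single libraries. For phyB-null over phyC-null, 2462 became 6039, 4726, 6248 and 3967 in the first 4 of these settings, 424 and 256 with limma, 1236 and 1167 over models of the count table, and 1063 to 3537 without single libraries. The counts that moved over 1.5-fold were, for phyB-null over WT, 5270 with phyB-null replicate 3 left out and 5573 with WT replicate 2 left out. For phyC-null over WT they were 958 without phyC-null replicate 3 and 355, 351 and 329 without WT replicates 1, 2 and 3. Between the mutants they were 1594, 1613, 1063 and 1373 without phyB-null replicates 1, 2, 3 and 4, and 1545 and 1483 without phyC-null replicates 1 and 2. The causes were not tested. The replicate block changed no call of the FUL genes. Same-numbered replicates correlated at -0.32 to 0.0083 between phyB-null and WT, at -0.038 to 0.22 between phyC-null and WT and at -0.53 to 0.55 between the mutants, with 0, 3 and 2 of 4 pairs over 0.1 and 0, 2 and 2 of 4 best with their own number. As no comparison had all 4 pairs over 0.1 and the labels name no shared plant, batch or day, the numbers were not taken as pairs. The filterByExpr filter removed FUL-B2 from each comparison with WT and all 4 genes from that between the mutants. Depth limits FUL-B2 most, with 39 WT reads.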
